A study of Mus musculus with 29 samples.

Results

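Of the 1183 mouse miRNAs in a small RNA sequencing table of muscle and serum, 135 had no serum count and at least 10 counts summed over 15 muscle libraries, and all of these but miR-208a-5p are the members described here (11.3% of the table). The members were chosen by their counts, through a gap in the table: 488 miRNAs carry 28 values under 29 column names, and their first 13 values are 0. The 15 values at the right end were read as the 15 muscle libraries, and serum was taken as 0. For 1 of the 14 serum libraries the value is thus not recorded and is assumed to be 0. Of the 488, 3 were left out by name, among them miR-208a-5p with 7420 counts and 2 with fewer than 10, and 351 others had fewer than 10 counts. Because counts were the rule, the members' absence from serum and their muscle totals are given as a description and are not tested.

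All animals were C57BL/6 mice, and the muscle was tibialis anterior, a hindlimb muscle of the shin. Young muscle came from control mice of 6 months, old muscle from control mice of 24 months, and disuse muscle from mice of 6 months labelled as a model of atrophy caused by disuse, each with 5 libraries. How disuse was brought about and for how long is not given in the sources used here. Serum of the same 3 groups gave 5 young, 4 old and 5 disuse libraries, made from a smaller RNA input and with a different extraction kit than muscle. No label says that replicates are separate animals, so the p-values describe only how much these samples vary, which may be technical variation, and whether a muscle and a serum library came from 1 animal is not stated.

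A miRNA hairpin is normally cut out of a nuclear transcript by Drosha and trimmed by Dicer to a duplex, of which the 5p or the 3p arm is kept as guide while the other arm is degraded. Mirtrons differ in that the splicing machinery makes an end of the hairpin, so that the end of the miRNA is the end of an intron, and tailed mirtrons use only 1 splice site. Some miRNAs are cut from small nucleolar (snoRNA) or small Cajal body RNAs (scaRNA), which guide modification of other RNAs. Dlk1-Dio3 is an imprinted domain whose maternal transcripts Meg3, Rian and Mirg carry one of the largest mouse miRNA clusters, active in the embryo and in muscle progenitors.

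All members but 12 matched a RefSeq miRNA record, and 112 a mature sequence, of 19 to 26 bases (build GRCm38, which is mm10). For some, such as miR-466q and miR-1a-1-5p, no hairpin record was found, and the mature sequence gave the position. Of the 7 most counted ones with a sequence, 4 are shown first, 5′ to 3′ with the seed, bases 2 to 8, in capitals, because the seed sets which messages a miRNA pairs with. The other 3, miR-6516-3p, miR-7052-3p and miR-677-3p, are printed further down with the members of their kind. miR-504-5p lies at chrX:59097705-59097726 on the minus strand in an intron of Fgf13, which encodes a regulator of sodium channels and microtubules. miR-1963 lies at chr7:29083671-29083693, minus strand, in an intron of Ryr1, the calcium release channel of the sarcoplasmic reticulum. miR-26a-2-3p lies at chr10:126995581-126995602, plus strand, in an intron of Ctdsp2, a small phosphatase. miR-1199-5p lies at chr8:84011594-84011613, minus strand, in an exon of 2210011C24Rik.
miR-504-5p: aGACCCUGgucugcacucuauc
miR-1963: uGGGACGAgaucaugaggccuuc
miR-26a-2-3p: cCUGUUCUugauuacuuguuuc
miR-1199-5p: uCUGAGUCccggucgcgcgg

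All 112 seeds were different, so no 2 members share one. Of the members, 8 share a seed with a miRNA that was counted in serum. The most counted of those partners was miR-26b-3p, with 1084 muscle counts, which has the seed of miR-26a-2-3p. miR-7018-3p shares its seed with miR-7068-3p (973 counts) and miR-128-2-5p with miR-128-1-5p.

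The next sequences carry the feature that sets the largest group of members together: their 3′ end is the end of an intron. The capitals mark the last 2 bases, AG, which are also the last 2 bases of nearly every mouse intron. miR-7052-3p (chr7:44470391-44470411, plus strand) ends an intron of Josd2, a deubiquitinase, miR-6964-3p (chr16:97877233-97877252, minus) one of C2cd2, miR-6929-3p (chr11:101419187-101419209, minus) one of Ptges3l, and miR-3100-3p (chr7:19086872-19086892, plus) one of Dmpk, the kinase gene of myotonic dystrophy.
miR-7052-3p: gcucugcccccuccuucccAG
miR-6964-3p: uuucuugucuuccacucuAG
miR-6929-3p: caggugcugucuucuucuuccAG
miR-3100-3p: cugugacacacccgcucccAG

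In a pair of these hairpins the hairpin and the intron are the same stretch. The hairpin of miR-7018-3p is the 85-base intron of Hspg2 (chr4:137538286-137538370, plus strand), the gene of the basement membrane proteoglycan perlecan, and that of miR-6958-3p is the 73-base intron of Dennd6b (chr15:89185465-89185537, minus strand). They are printed whole, with the mature miRNA in capitals; both begin with gu and end with ag. The hairpin of miR-6945-3p, at the end of an intron of Pdlim7 (chr13:55507625-55507692, minus), a LIM protein of the actin cytoskeleton, shows the other arrangement: the miRNA stops 2 bases before the intron ends, and those bases are ag.
miR-7018-3p hairpin: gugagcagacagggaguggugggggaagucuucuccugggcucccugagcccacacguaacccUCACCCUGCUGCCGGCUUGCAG
miR-6958-3p hairpin: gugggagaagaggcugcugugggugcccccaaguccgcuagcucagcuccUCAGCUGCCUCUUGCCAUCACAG
miR-6945-3p hairpin: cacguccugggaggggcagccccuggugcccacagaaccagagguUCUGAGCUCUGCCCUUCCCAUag

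Members were rare in muscle. Together they held 8985 counts, 0.0267% of the 33703732 muscle counts, with totals from 10 to 1086 and a median of 25.5. Of the members, 17 had 100 counts or more and 51 had fewer than 20. miR-1949, miR-6516-3p, miR-504-5p and miR-1963 held 37.8% of all member counts, and the 12 most counted held 57.5%. A member was counted in a median of 9 of the 15 libraries: 9 members were counted in all 15, 39 in at least 12 and 18 in 5 or fewer. At the threshold, 18 members had a total of 10 or 11, and 20 miRNAs of the same kind had 8 or 9 and were not members.

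Serum depth limits what a serum count of 0 can show. Serum libraries held 45176 to 309133 counts, 2285666 in all, against 254738 to 5946587 in muscle libraries. A count of 0 over all serum libraries allows up to 1.31 counts per 1000000 (CPM; 3 counts of the total, counting error only), or 1.52 CPM without the deepest serum library. Over all muscle libraries the members lay at 0.297 to 32.2 CPM with a median of 0.757. The level of 41 members was above the serum limit, and that of 93 was at or below it, so for those 93 a lower level in serum than in muscle was not detectable at this depth. The share of miRNAs with no serum count fell with muscle level. It was 51.5% (51 of 99) at 10 to 19 muscle counts, 23.1% (15 of 65) at 50 to 99, 5.51% (7 miRNAs) at 200 to 999 and 1.06% (2 of 189) at 1000 or more, where the only such miRNAs were miR-1949 and the left-out miR-208a-5p.

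**Figure D1:**
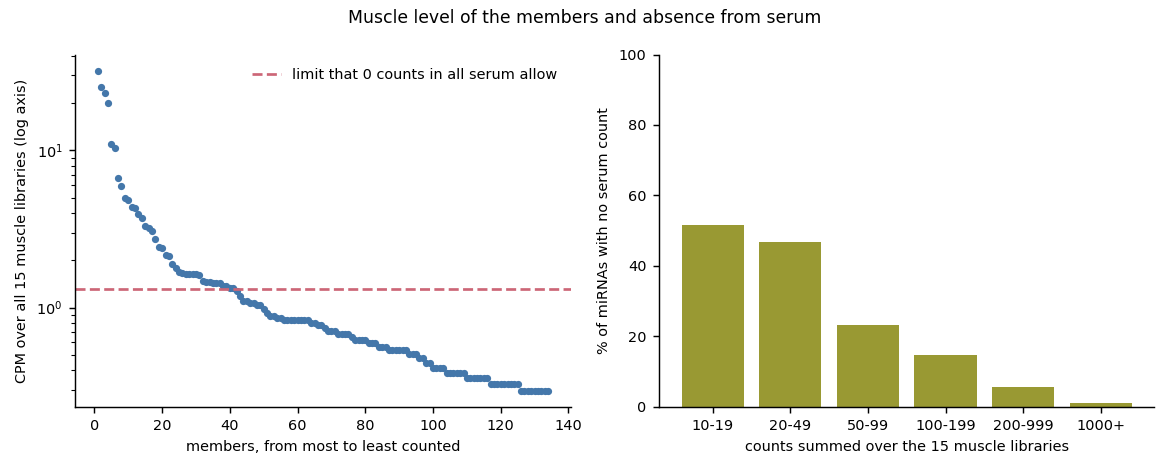
Left, level of each member over the 15 muscle libraries together (CPM, log axis), ranked, with the level that 0 counts in all serum libraries allow (dashed, 1.31 CPM); 41 points lie above the line. Right, percentage of miRNAs without a serum count by muscle count, which goes from 51.5% at 10 to 19 counts to 1.06% at 1000 or more.

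Muscle libraries held 268474 to 2589798 counts in young (median 536076), 1350370 to 5946587 in old (median 2826997) and 254738 to 4824492 in disuse muscle (median 2299583). miR-133a-3p, the abundant miRNA of striated muscle, took 37.5% to 52.2% of muscle counts and 0.0612% to 0.464% of serum counts. The number of members seen followed depth, at 36 to 102 in young, 74 to 123 in old and 35 to 123 in disuse libraries. Their summed level did not separate the groups: 242 to 571 CPM in young (median 283), 180 to 474 in old (median 239) and 231 to 287 in disuse muscle (median 270). Young muscle 3 and old muscle 3 stood apart for several members, as given below.

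The hosts of the members were mostly introns. In the GENCODE annotation (M21 basic, mm10), 80 members lay in an intron of a gene on the same strand, 12 in an exon, 4 in an intron or an exon by transcript, 19 between genes, 6 opposite a gene and 1 within the span of a gene but outside its kept transcripts. Apart from those named with their sequences, miR-483-5p lies in Igf2, an imprinted growth factor, miR-675-3p in an exon of H19, an imprinted non-coding RNA, miR-490-5p in Chrm2, a muscarinic receptor, miR-33-3p in Srebf2 and miR-6922-3p in Srebf1, both regulators of lipid synthesis, and miR-7019-3p in Pink1, a mitochondrial kinase. The table holds no messenger RNA, so the levels of host genes were not analysed here. A host was shared by 2 members in 8 cases. In 7 of them they were the 2 arms of 1 hairpin, such as miR-3100-3p and miR-3100-5p of Dmpk, and in the other they were miR-409-5p and miR-369-3p of Mirg.

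The 3′ end of 31 of the 112 members with a mature sequence (27.7%) was within 2 bases of an annotated intron end, each in a different host gene. All 31 were 3p arms; 25 stopped exactly at the intron end, and all 25 end in AG, while the other 6 stopped 2 bases short. The same was true of 34 of 292 miRNAs (11.6%) that had muscle totals in the members' range and were counted in serum too. The hosts' introns measured 73 to 19696 bases, with a median of 488, and 6 were at most 100 bases long, so that for most of these miRNAs only the 3′ end lies at a splice site. miR-7091-5p of Dnase1l1 began at the first base of its intron, and its hairpin is the whole 79-base intron. These 31 miRNAs were rich in pyrimidines, with a median of 75.0% C and U (52.4% to 90.0%) against 52.4% in the 35 other 3p members. The 34 intron-end miRNAs that were counted in serum too were similar, with a median of 70.7% (54.5% to 90.9%). The 31 members held 1753 counts, 19.5% of the members' counts, led by miR-7052-3p with 373, miR-6945-3p with 169, and miR-6964-3p with 163.

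By name, 75 members (56.0%) were 3p arms, 46 were 5p arms and 13 carried no arm. Of the 515 miRNAs with 10 or more muscle counts and a serum count, 50.3% were 3p arms. A miRNA number above 1000, a mark of later registration, was carried by 85 members (63.4%), against 24.3% of those 515. The 515 were not limited to the members' range of muscle totals. The opposite arm of the hairpin was in the table for 91 members. It was the more abundant arm in muscle for 45 of them, at least 10 times so for 29 and at least 1000 times so for 8. miR-149-3p had 13 counts against 541371 for miR-149-5p, miR-100-3p had 20 against 61306, miR-186-3p had 14 against 40327, and miR-26a-2-3p had 348 against 880353 for miR-26a-5p, which another hairpin also produces. The member was the more abundant arm for 45. miR-504-5p had 785 counts against 24 for miR-504-3p, and miR-6516-3p had 852 against 594 for miR-6516-5p.

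**Figure D2:**
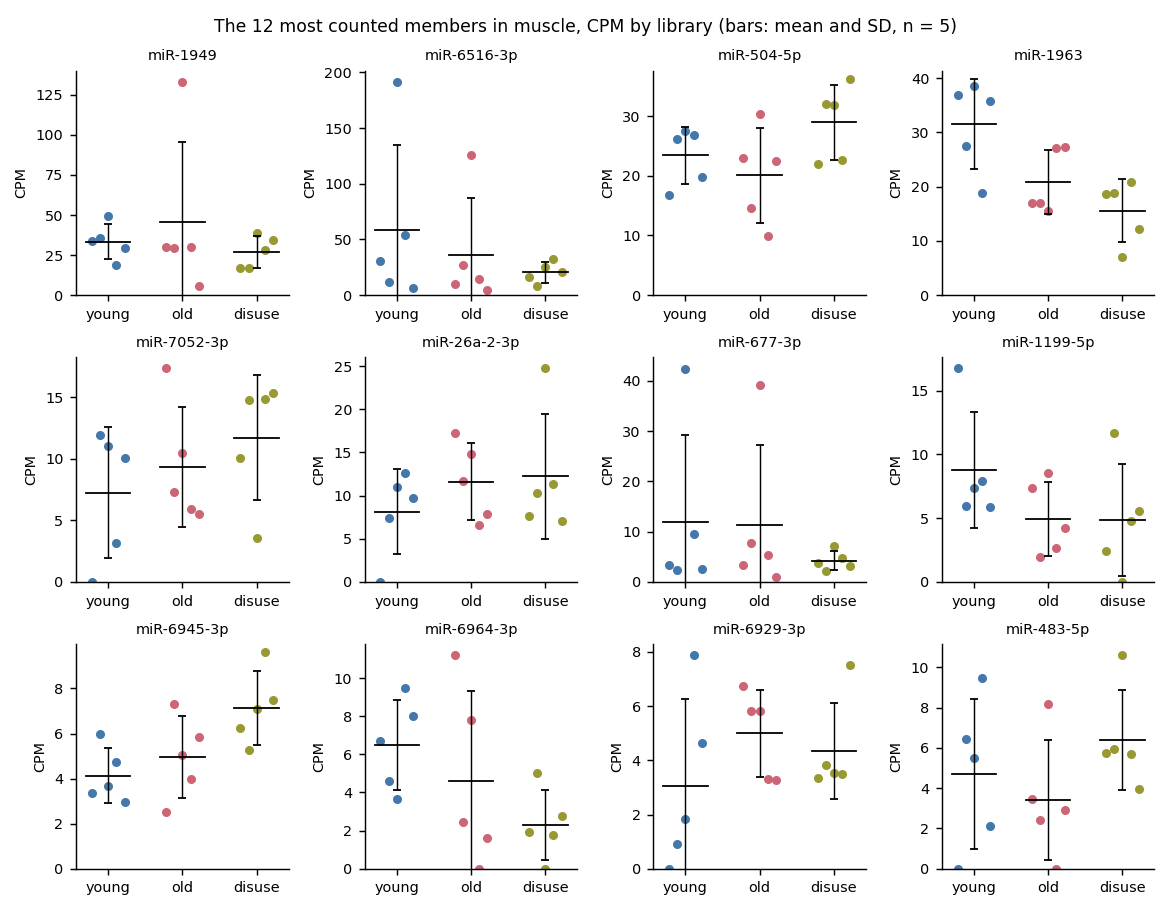
CPM of the 12 most counted members in each of the 15 muscle libraries (points), with the mean and SD of each group (n = 5). The libraries of the 3 groups overlap in every panel, and single high points in young and old muscle are seen for miR-6516-3p and miR-677-3p.

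miR-1949, the most counted member, was near 30 CPM in most libraries. It was at 33.5, 35.4, 49.6, 18.9 and 29.4 CPM in young muscle 1 to 5, at 30.1, 29.2, 133.3, 29.8 and 5.87 in old muscle 1 to 5, and at 16.8, 16.7, 38.9, 28.4 and 34.4 in disuse muscle 1 to 5. Old muscle 3 was the highest of all libraries and old muscle 5 the lowest, so both extremes lay in 1 group. The log2 fold change was 0.46 ± 0.45 (SE) between old and young muscle (edgeR adjusted p = 0.639) and -0.49 without old muscle 3.

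miR-504-5p was the evenest of the abundant members. Its level ran from 16.8 to 27.6 CPM in young muscle (23.4 ± 4.84, SD, n = 5), from 9.93 to 30.3 in old muscle (20.1 ± 7.94) and from 22 to 36.3 in disuse muscle (29 ± 6.30). The groups overlapped, and no comparison passed (edgeR adjusted p = 0.460 to 0.877).

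miR-1963, from the intron of Ryr1, was at 36.9, 27.6, 38.6, 18.9 and 35.8 CPM in young muscle, at 17, 17, 15.5, 27.1 and 27.4 in old muscle and at 18.7, 18.9, 7.07, 20.9 and 12.2 in disuse muscle. All young libraries but 1 were above every disuse library, and the other, young muscle 4, lay among them. Among members it had the smallest p of the comparison of disuse with young muscle, at -0.90 ± 0.30 on the log2 scale, and did not pass (edgeR adjusted p = 0.328). Its old against young difference was -0.59 ± 0.29 (adjusted p = 0.285).

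miR-26a-2-3p, the passenger arm of a hairpin of the abundant miR-26a, was at 8.13 ± 4.94 CPM (SD, n = 5) in young, 11.6 ± 4.48 in old and 12.2 ± 7.22 in disuse muscle. The highest value, 24.7 CPM in disuse muscle 3, rests on 7 counts. miR-1199-5p was at 8.77 ± 4.55, 4.94 ± 2.89 and 4.88 ± 4.38 CPM in the same order, with groups that overlapped.

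The 4 intron-end members among the most counted ones did not pass in any of the 3 comparisons. miR-7052-3p was at 0, 12, 11, 3.15 and 10.1 CPM in young muscle, at 17.4, 7.30, 10.5, 5.96 and 5.54 in old and at 10.1, 14.8, 3.54, 14.8 and 15.4 in disuse muscle. miR-6945-3p had means of 4.13 ± 1.22, 4.94 ± 1.82 and 7.13 ± 1.63 CPM in young, old and disuse muscle, and its disuse against young difference was 0.72 ± 0.43 (edgeR adjusted p = 0.804). miR-6964-3p was at 6.48 ± 2.38, 4.61 ± 4.70 and 2.29 ± 1.82 CPM and miR-6929-3p at 3.05 ± 3.21, 5.00 ± 1.61 and 4.34 ± 1.78. Over the 31 intron-end members the median log2 difference was 0.01 between old and young muscle and 0.24 between disuse and young muscle, and none passed in any of the 3 comparisons.

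Of the members, 6 lie in genes annotated as snoRNA or scaRNA and held 1213 counts, 13.5% of the members' counts. miR-6516-3p lies in a scaRNA gene within Snhg20 and miR-677-3p in a snoRNA gene within an intron of Atp5b, which encodes a subunit of ATP synthase. Their hairpins are shown with the mature miRNA in capitals (chr11:117077348-117077457 and chr10:128085286-128085363, both plus strand). The other 4 are miR-3068-5p of Alkbh1, miR-3069-3p and miR-3069-5p of Scarna13 within Snhg10, and miR-3084-5p, which has 2 identical copies, in Eif3a and in Cbwd1.
miR-6516-3p hairpin: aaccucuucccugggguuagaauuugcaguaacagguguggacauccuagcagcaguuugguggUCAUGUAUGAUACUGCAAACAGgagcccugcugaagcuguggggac
miR-677-3p hairpin: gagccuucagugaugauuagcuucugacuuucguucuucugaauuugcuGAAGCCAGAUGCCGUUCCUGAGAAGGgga

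Young muscle 3 and old muscle 3 were far above the other libraries for several of these. miR-6516-3p was at 191 CPM in young muscle 3 (104 counts) and 126 CPM in old muscle 3 (324 counts), and at 4.24 to 53.6 CPM in the other 13. miR-677-3p was at 42.3 and 39.3 CPM in the same libraries (23 and 101 counts) and at 0.978 to 9.45 CPM elsewhere, and miR-3069-3p at 5.51 and 5.83 CPM (3 and 15 counts) and at no more than 3.54 elsewhere. Old muscle 3 held 8.39% of all muscle counts and 38.0% of those of miR-6516-3p.

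The other arm of the same hairpins was not far above the rest in both libraries. miR-6516-5p was at 18.4 CPM in young muscle 3 and 24.1 in old muscle 3, within the 6.30 to 32.6 CPM of the other libraries. miR-677-5p, with 19 counts in all, had no count in old muscle 3. In young muscle 3 it was at 3.67 CPM (2 counts), against at most 3.35 CPM in the other 13. At the hairpin of miR-3068 the 3p arm was again the high one, but there the 5p arm is the member. miR-3068-3p, which was counted in serum too, was at 169 and 328 CPM against a maximum of 92.9 elsewhere, and the member miR-3068-5p was at 0 and 3.11 CPM. Among all 21 tested miRNAs in snoRNA or scaRNA genes, both libraries were above all of the other 13 for 6 (28.6%), as they were for 15 of all 650 tested miRNAs (2.31%) and for 5 members (3.73%); the 6 were all 3p arms. These shares were looked at after the values had been seen.

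**Figure D3:**
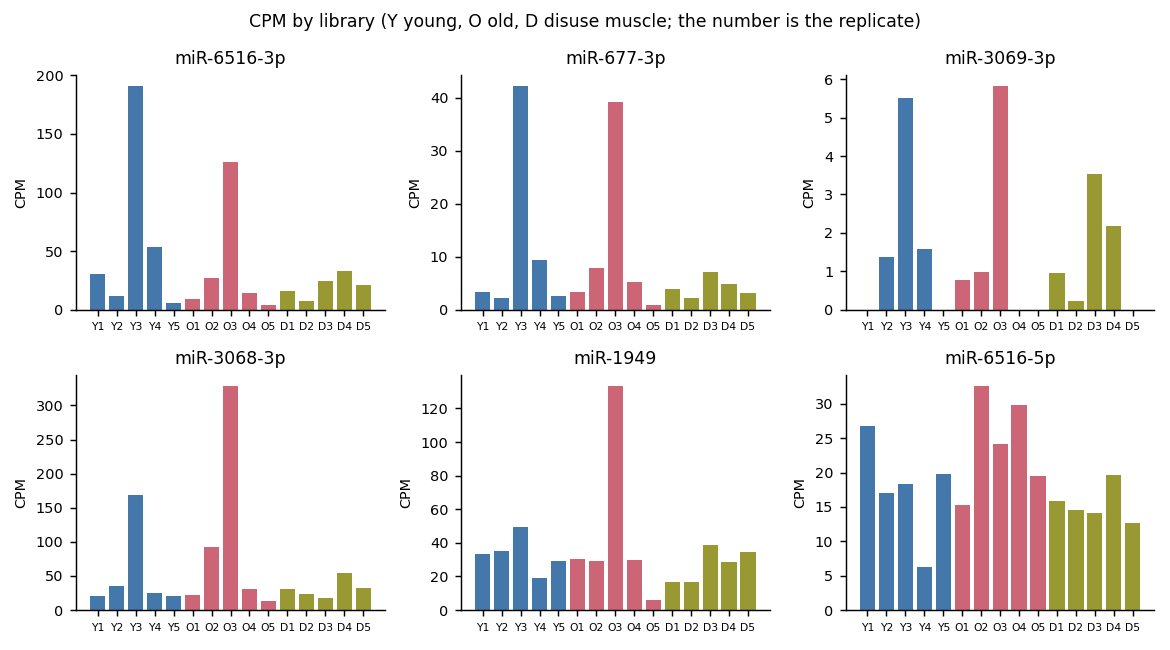
CPM in each muscle library (Y young, O old, D disuse; the number is the replicate) of 3 members in snoRNA or scaRNA genes (miR-6516-3p, miR-677-3p, miR-3069-3p), of miR-3068-3p and miR-6516-5p, which are not members, and of miR-1949. Y3 and O3 are the highest bars in the first 4 panels, O3 stands out for miR-1949, and neither is highest for miR-6516-5p.

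With these libraries in place, miR-6516-3p had a log2 fold change of -0.60 ± 0.67 between old and young muscle (edgeR adjusted p = 0.694). This value was -2.03 without old muscle 3 (adjusted p = 0.0481), 0.74 without young muscle 3 and -0.68 without both. Its disuse against young difference was -1.47 ± 0.71 (adjusted p = 0.728), and -0.11 without both. For miR-677-3p the old against young difference of 0.21 ± 0.71 became -1.28 without old muscle 3. Young muscle 3 held 488835 counts and old muscle 3 held 2826997, both within the range of their groups, and what else they share was not tested.

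With age, between young and old muscle, 3 members fell and none rose: miR-543-5p, miR-493-3p and miR-493-5p, all of the Dlk1-Dio3 domain. They are 2.24% of the members, beside 3.54% of all 650 miRNAs tested that passed in either direction, 2.77% lower and 0.769% higher. The call of miR-543-5p is not independent of how that member was chosen, as given below. At an unadjusted p under 0.05 there were 14 members (10.4%), 6 higher and 8 lower, against 17.1% of all tested. Over the members the median log2 difference was 0.04, against 0.13 over all tested, and the median SE was 0.92. In these bulk samples fewer cells of a type and less miRNA per cell cannot be told apart.

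The sequences of the members that passed a test are given with the seed in capitals. All lie on the plus strand of chromosome 12 between genes: miR-493-5p at chr12:109580243-109580261, miR-493-3p at chr12:109580283-109580305 in the same hairpin, miR-543-5p at chr12:109717269-109717289 and miR-539-5p at chr12:109728136-109728157. The last of these passed only in the comparison of old with disuse muscle.
miR-493-5p: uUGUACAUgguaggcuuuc
miR-493-3p: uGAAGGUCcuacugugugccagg
miR-543-5p: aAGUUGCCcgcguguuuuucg
miR-539-5p: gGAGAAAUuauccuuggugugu

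miR-493-5p was at 3.35, 5.98, 7.35, 4.73 and 6.31 CPM in young muscle, at 1.74, 0.487, 1.94, 0.662 and 3.59 in old muscle and at 5.75, 5.01, 7.07, 5.67 and 5.53 in disuse muscle. All old libraries were below all disuse libraries, and only old muscle 5 reached into the young range, just above young muscle 1. The difference was -1.65 ± 0.47 (SE) on the log2 scale between old and young muscle (edgeR adjusted p = 0.0401) and -1.59 ± 0.44 between old and disuse muscle (adjusted p = 0.0420). With DESeq2 the first had an adjusted p of 0.0234 and the second 0.0474.

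miR-493-3p, the other arm of that hairpin and so not independent of it, was at 0, 1.84, 1.84, 1.58 and 5.47 CPM in young, at 0.579, 0, 0.777, 0.662 and 0.326 in old and at 4.31, 1.91, 3.54, 2.18 and 2.37 in disuse muscle. Old muscle was below every disuse library and below every young library but young muscle 1, the shallowest young library, which had no count. The differences were -2.41 ± 0.68 (edgeR adjusted p = 0.0401) against young and -2.35 ± 0.65 (adjusted p = 0.0420) against disuse muscle.

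miR-543-5p had 0 counts in all 5 old libraries, which hold 15471262 counts. It had 0, 2, 3, 1 and 3 counts in the young libraries, which hold 6054046, and 1, 7, 0, 1 and 5 counts in the disuse libraries. With old muscle set at the limit of 3 counts over its libraries together, miR-543-5p was 7.67-fold below young and 5.93-fold below disuse muscle (edgeR adjusted p = 0.0104 and 0.0232). These folds leave out the counting error of the young and disuse counts, so they are not lower bounds. miR-543-5p reached the total of 10 needed for membership and for the test only through young and disuse muscle, the groups where it is high. The old and young libraries together hold 9 counts, so its calls are not independent of how it was chosen. Between old and disuse muscle it missed the threshold in 5 of 15 fits that left out 1 library (adjusted p = 0.0173 to 0.0861). The opposite arm, miR-543-3p, with 99 counts, was at -0.92 ± 0.52 between old and young muscle (adjusted p = 0.367).

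miR-539-5p was at 0, 1.84, 5.51, 0 and 4.21 CPM in young, at 0.579, 0.487, 0.777, 1.32 and 0.326 in old and at 3.36, 3.10, 0, 3.93 and 3.55 in disuse muscle. All disuse libraries but 1 were above all old libraries, and the other, disuse muscle 3, with the fewest counts of all muscle libraries, had none. Between old and disuse muscle its log2 difference was -2.25 ± 0.61 (edgeR adjusted p = 0.0420), and its old against young difference of -1.97 ± 0.68 did not pass (adjusted p = 0.11).

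**Figure D4:**
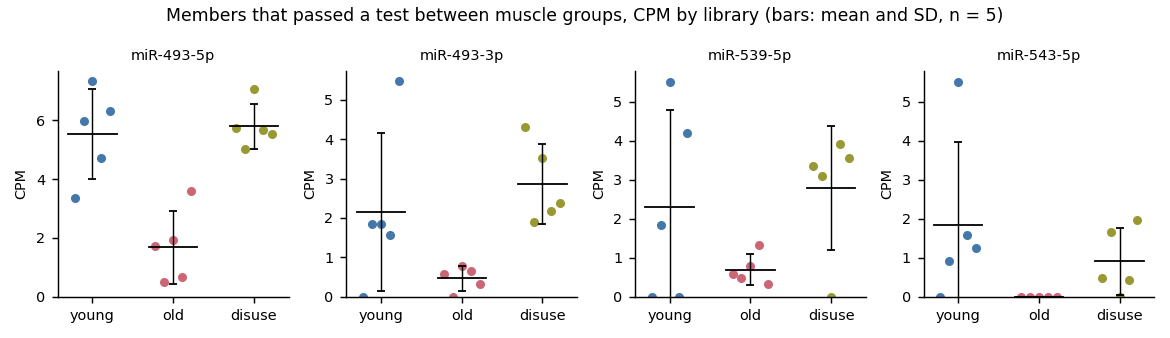
CPM in each muscle library (points) of the members that passed a test between muscle groups, with the mean and SD of each group (n = 5). Old libraries lie below all disuse libraries for miR-493-5p and miR-493-3p, and all 5 old libraries are at 0 for miR-543-5p.

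The calls rest on few libraries. Leaving out 1 of the 15 libraries at a time left 1 to 3 members called between old and young muscle, while 13 to 32 of all 650 miRNAs were called. miR-543-5p passed each time (adjusted p = 0.00978 to 0.0358), miR-493-3p missed the threshold in 9 of the 15 fits (0.0200 to 0.303) and miR-493-5p in 11 (0.00946 to 0.102), with the direction kept in all of them. All these fits kept the filter on the full total, so the passes of miR-543-5p are not independent of how it was chosen. With both young muscle 3 and old muscle 3 left out, 2 members were called, with miR-493-5p at an adjusted p of 0.0792, and 25 of all 650.

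The Dlk1-Dio3 list held 15 members, with 610 counts. Their hairpins lie on chromosome 12, with 10 of them within chr12:109710175-109728202, each no more than 10 kb from the next. Between old and young muscle 3 of the 15 fell and 12 did not pass, with a median log2 difference of -1.12, beside 0.13 over all tested miRNAs. Of all 650 tested, 2.77% were lower. The differences were negative for 12 of the 15. miR-369-3p, from Mirg, was at -2.17 ± 0.85 (edgeR adjusted p = 0.166), miR-411-3p at -2.08 ± 1.02 (0.285), miR-381-5p at -1.12 ± 0.63 (0.365) and miR-679-5p at -1.06 ± 0.72 (0.484). On the other side were miR-329-3p at 1.39 ± 1.25, miR-770-3p, from Meg3, at 0.44 ± 0.83 and miR-494-5p, with 11 counts. The 48 miRNAs of the list that were also counted in serum had 13 lower (27.1%) and 0 higher, with a median of -1.13. The list was drawn up with results of these libraries known, and it is not independent evidence of its direction. Reads of miR-376a-5p, miR-376b-5p and miR-376c-3p can match near-identical copies, and how such reads were counted is not given in the sources used here.

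**Figure D5:**
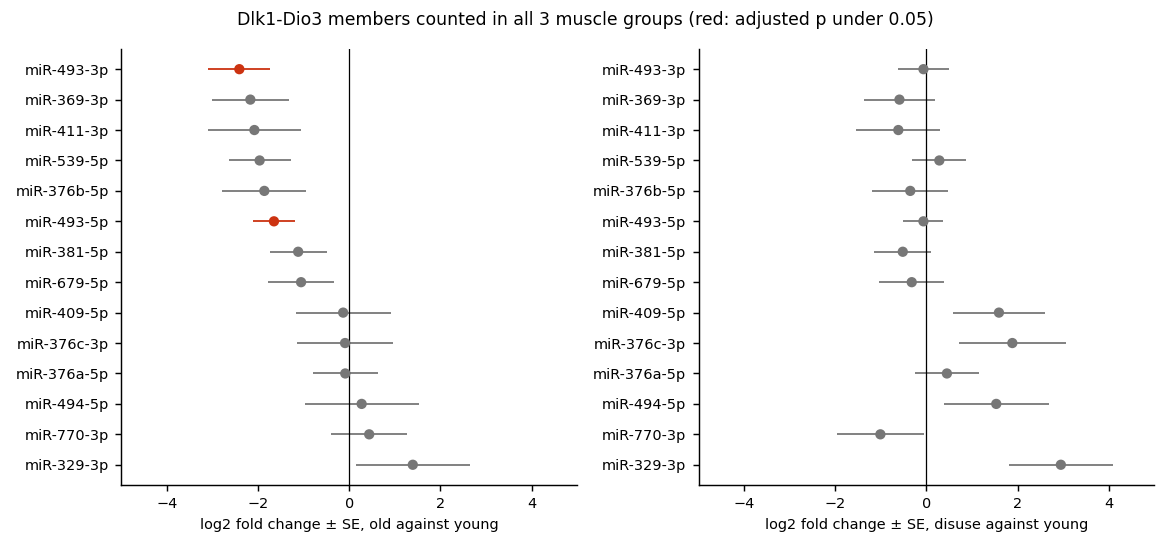
Log2 fold change ± SE of the 14 Dlk1-Dio3 members that were counted in all 3 muscle groups, old against young (left) and disuse against young (right); red marks an adjusted p under 0.05. Most points lie left of 0 on the left, and miR-493-3p and miR-493-5p are red there; on the right no point is red. miR-543-5p, with no count in old muscle, is not drawn.

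Disuse was compared with young muscle of the same age, 6 months. No member passed edgeR's test, and 0.0% of the 650 miRNAs tested did. DESeq2 called 0 members too. At an unadjusted p under 0.05 there were 5 members (3.73%) against 6.46% of all tested: miR-1963 and miR-6516-3p, given above, miR-329-3p, miR-1249-5p and miR-7004-3p. miR-329-3p had 1 count in the 5 young libraries and 5, 5, 1, 3 and 5 in the disuse libraries, a log2 difference of 2.95 ± 1.14 (edgeR adjusted p = 0.483). It reached the total of 10 only with the counts of disuse muscle, the group where it is highest. This difference is thus not independent of how it was chosen. miR-1249-5p and miR-7004-3p had no young count. Their counts in disuse muscle 1 to 5 were 0, 0, 1, 2 and 5 for miR-1249-5p and 0, 5, 0, 0 and 2 for miR-7004-3p, so most came from 1 library each. Both reached the total of 10 only through old and disuse muscle, the groups where they are counted, and no fold is given. The median member difference was 0.12, with a median SE of 0.96.

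Of the 15 Dlk1-Dio3 members 0 passed between disuse and young muscle, with a median of -0.07, and 9 were negative. miR-493-5p was at -0.07 ± 0.44 and miR-493-3p at -0.07 ± 0.57. This comparison shares its young libraries with that of old and young muscle, so the values are set side by side and not correlated.

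Old and disuse muscle, the aged and the induced condition, were also compared directly. Here 4 members were lower in old muscle and none was higher: miR-543-5p, miR-539-5p, miR-493-3p and miR-493-5p. They are 2.99% of the members, beside 2.77% of all tested that passed in either direction, 2.15% lower and 0.615% higher. As given above, the call of miR-543-5p is not independent of how that member was chosen. At an unadjusted p under 0.05 there were 14 members (10.4%, against 11.5% of all tested), 3 higher and 11 lower. The 15 Dlk1-Dio3 members had a median of -1.55, with 14 negative. The median over all members was -0.02. When 1 library was left out at a time, 0 to 4 members and 4 to 18 of all 650 miRNAs were called, with 0 members when old muscle 1, 2 or 4 or disuse muscle 2 or 5 was left out, 1 without disuse muscle 1 or 4 and 2 without disuse muscle 3. DESeq2 called miR-493-5p alone, with adjusted p-values of 0.0648 for miR-543-5p and miR-539-5p and 0.0738 for miR-493-3p. With young muscle 3 and old muscle 3 both left out 4 members were called, but miR-493-5p missed the threshold (edgeR adjusted p = 0.0653) and miR-8109 passed as higher in old muscle. The call of miR-8109 is not independent of how that member was chosen either, as given below.

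miR-8109, which lies opposite Neto2, had a log2 difference of 3.43 ± 1.09 between old and disuse muscle (edgeR adjusted p = 0.107). Of its 29 counts, 24 were in old muscle 1, with 2, 0, 1 and 0 in old muscle 2 to 5, 1 in all young and 1 in all disuse libraries. The difference was at 1.44 without old muscle 1 (adjusted p = 0.604). It passed without old muscle 3 (3.71, adjusted p = 0.0452), without old muscle 5 (3.67, adjusted p = 0.0410) and without both libraries numbered 3 (3.75, adjusted p = 0.0441), all of which keep old muscle 1.

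Other named lists held few members and none that passed. The Sfmbt2 list, named after the placenta-expressed gene whose intron carries a large miRNA cluster, had 4 members: miR-669c-5p (108 counts; 0.73 ± 0.51 between old and young muscle, edgeR adjusted p = 0.488), miR-466q, miR-669a-3p and miR-467a-3p. The RefSeq mature sequence of miR-466q lies in an intron of Tnik and not in Sfmbt2. These families have near-identical copies, so their counts are uncertain. The X-linked germline list had miR-547-3p with 21 counts and miR-465c-3p with 12.

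The other imprinted list had miR-483-5p, with 4.70 ± 3.71 CPM (SD, n = 5) in young, 3.40 ± 2.98 in old and 6.39 ± 2.49 in disuse muscle, and miR-675-3p, with 1.45 ± 1.31, 1.56 ± 0.692 and 2.07 ± 1.12 CPM. The lists for skeletal muscle, neural, epithelial, HOX and fibroblast miRNAs each had 1 member: miR-1a-1-5p (37 counts), the passenger arm of the muscle miRNA miR-1a, miR-128-2-5p (16), miR-194-2-3p (33), miR-196a-2-3p (15) and miR-145b (13). The pancreas, leukocyte, erythroid, liver, early embryo and miR-17-92 lists had 0 members.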

How the data were processed

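Small RNA libraries of tibialis anterior muscle and serum were made with a TruSeq Small RNA kit, per the labels' protocols, and Bowtie and mm10 are named in the submitters' processing notes; the sources used here give no version, annotation or rule for reads with several matches. The deposited values are counts per mature miRNA. In 488 of 1183 lines the last cell is lacking, so the last deposited column was recorded as of another kind (other) and read by alignment from the right. Under that alignment the totals of the short lines followed library depth with r = 0.96 over 15 muscle libraries on log2 scales, against -0.16 over 14 libraries when aligned from the left. Families left out by name were read as let-7, miR-98, miR-29 and miR-30, with miR-1b, miR-208, miR-451a and miR-34a.

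Counts were tested with edgeR 4.0.16 (R 4.3.3), quasi-likelihood F test, TMM factors and a muscle total of at least 10, with 5 libraries in each of 3 groups in 1 fit. All 650 such miRNAs were tested and p-values adjusted over them by Benjamini-Hochberg at 0.05. SE is the log2 fold change divided by the root of F. CPM values of a miRNA in single libraries are scaled by TMM. Summed member levels, levels over several libraries together and the limits for a count of 0 use unscaled library totals. Named members are the 12 most counted, those that passed, the 5 with the smallest p per comparison, 2 per list, and up to 2 per shared host or cluster. Alternatives were other scalings and filters, DESeq2 1.42.0, fits to 2 groups, each library left out, and a replicate block. The edgeR script was tested on simulated data. Recovery of known changes was required there only of miRNAs with more counts than nearly all members have. It was not required at the counts typical of members. Members and lists were chosen with earlier results of these data known. Same-numbered libraries did not deviate together: 1 of 15 pairs had r over 0.1 (-0.19 to 0.12). Intervals and limits cover counting error only, as molecules were not tagged.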

Additional observations from a re-analysis of the deposited data

Results flagged for a closer look

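Of 60 sets of 5 libraries (a named member in a muscle group, with at least 1 count) 15 held a library that lay far from the other 4, where chance gives about 1 in 20; counts this low have many ties at 0. High libraries were old muscle 3 for miR-1949 (133.3 CPM), miR-6516-3p (126 CPM) and miR-677-3p (39.3 CPM), and young muscle 3 for miR-6516-3p (191 CPM), miR-677-3p (42.3 CPM), miR-543-5p (5.51 CPM, 3 counts) and miR-329-3p (1.84 CPM, 1 count). miR-1199-5p was high in young muscle 1 (16.8 CPM, 5 counts), miR-26a-2-3p in disuse muscle 3 (24.7 CPM, 7 counts) and miR-6929-3p in disuse muscle 5 (7.50 CPM, 19 counts). miR-1249-5p was counted in 1 old library, old muscle 1 (0.579 CPM, 3 counts). miR-8109 was high in old muscle 1 (4.63 CPM, 24 counts) and had 1 count each in young muscle 5 (0.421 CPM) and disuse muscle 2 (0.239 CPM). miR-539-5p was at 0 CPM in disuse muscle 3, the shallowest library, against 3.10 to 3.93 CPM in the other disuse libraries.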

How the results depend on the processing

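With library totals or upper-quartile factors the same number of members passed as in the text. Between old and young muscle 1 member in place of 3 passed with filterByExpr (which tested 14 members), with 1 count as the only filter, in the fit of the 2 groups alone and with DESeq2. DESeq2 gave no adjusted p for miR-543-5p and miR-493-3p there, so they are not counted as lost; their log2 differences there were -4.62 and -2.50. Between old and disuse muscle 1 in place of 4 passed with filterByExpr and with DESeq2. miR-493-3p and miR-493-5p missed the threshold there with 1 count as the only filter (edgeR adjusted p = 0.0621 and 0.0633). With 1 count as the only filter 1 member, miR-6516-3p, passed between disuse and young muscle. A replicate block left 1 member in both comparisons with old muscle, miR-543-5p, and 0 otherwise, but the numbers do not pair the samples. The calls of miR-543-5p are not independent of how it was chosen. A total of 5 or of 20 in place of 10 made 17.4% or 7.02% of the table's miRNAs members in place of 11.3%.

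Leaving out 1 library gave 1 to 3 members called between old and young, 0 to 4 between old and disuse muscle, and 9.81% to 11.3% of the table's miRNAs as members. Differences near 0 changed sign with single settings. For old against young these were miR-677-3p (-0.00429 with upper-quartile factors, -0.0197 with the block, -0.00206 with DESeq2, -1.28 to 1.61 with 1 library left out), miR-1249-5p (-0.34 with DESeq2, 0 to 2.28), miR-1949 (-0.33 without both libraries numbered 3, -0.49 to 0.68), miR-6516-3p (-2.03 to 0.74), miR-6945-3p (-0.0258 to 0.46) and miR-7052-3p (-0.24 to 0.38). For disuse against young they were miR-493-5p (0.0134 with the block), miR-543-5p (0.0876 without both libraries numbered 3, -0.83 to 0.0833), miR-493-3p (-0.31 to 0.74), miR-483-5p (-0.10 to 0.49) and miR-8109 (-1.82 to 1.27). For old against disuse they were miR-6516-3p (-0.13 with the block, -0.57 without both, -0.57 to 1.18), miR-1949 (-0.11 without both, -0.11 to 1.03), miR-1199-5p (-0.45 to 0.38) and miR-7004-3p (-1.87 to 0.16). The causes were not tested.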
